A study of Cricetulus griseus with 8 samples.

Results

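The transcripts described here belong to the signalling pathways of transforming growth factor beta (TGF-beta) and the bone morphogenetic proteins (BMPs). They were taken as the rows of the deposited gene table whose symbol equals 1 of 44 listed names: ligands and their antagonists, proteins that store or release ligand, receptors, SMAD proteins, their inhibitors and corepressors, and the Id transcription regulators. Of the 44, 43 were found among the 26776 named genes, and Id4 was not analysed here. The RNA came from LR73, a line of Chinese hamster cells labelled as fibroblast and used as phagocytes, in 4 libraries of phagocytes alone and 4 libraries of phagocytes co-cultured with apoptotic Jurkat cells, a human T lymphoma line. Per the labels, the Jurkat cells had received UV-C light at 1500 mJ and spent 4 h in culture before they were added. Both groups grew in the same serum-containing medium, and the column names of both carry the letters GFP, which the labels do not explain. How long the co-culture lasted is not given in the sources used here. The series describes 4 biological replicates per condition without saying what was replicated, so p-values measure only the spread between these libraries.

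TGF-beta is secreted as an inactive complex, in which latent TGF-beta binding proteins tie the ligand to the matrix until thrombospondin, integrins or proteases release it. Active ligand joins a pair of type II and type I receptors. TGF-beta and activin receptors then phosphorylate SMAD2 and SMAD3, and BMP receptors SMAD1, SMAD5 and SMAD9. These enter the nucleus with SMAD4, and the Id genes are classic direct targets of the BMP branch. In phagocytes, TGF-beta is known as a signal released on uptake of apoptotic cells that quiets inflammation, and in fibroblasts as an inducer of matrix genes.

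Depth was 22.7 to 29.7 M (mega) reads per library over all named genes. Levels are given as normalized counts, which are read counts per gene scaled by the authors with a single factor in each library, and were tested with limma on log2(normalized count + 1) for the 13494 genes with a mean of at least 10. A gene was called at a Benjamini-Hochberg adjusted p under 0.05 over all genes tested. Alone library 1 differed from its replicates across the transcriptome, with a chi-square per degree of freedom of 16.6 to 30.7 against them where other pairs of replicates gave 1.56 to 3.26. It touches the pathway directly. In 25 of the 38 tested members it was the lowest of the 4 alone libraries and in 7 the highest, against 39.6% and 39.4% of all tested genes, so results are also given without it. Of 16 fibroblast markers, 10 had a mean of at least 10 normalized counts, among them vimentin (Vim), fibronectin (Fn1) and Col6a1. Thy1 had 0 reads, Col1a1 2 reads in each group, and Col1a2 6 alone and 4 in co-culture, so transcripts of type I collagen, the main fibrillar collagen of fibroblasts, were near 0 in this line. The summed level of these markers was 155101 to 158854 normalized counts alone and 181541 to 183438 in co-culture. Vim, at a mean of 111964 alone and 130760 in co-culture, and Col6a1, at 9418 and 14056, carried most of this difference and were the 2 of the 10 tested that rose by limma. Dcn, a matrix proteoglycan, fell from 953 to 767, and 7 did not pass. The 20 T cell markers summed to 1555 to 1643 and 1380 to 1451 normalized counts, carried by Tcf7, Themis and Lat, and 3 of the 7 that could be tested fell. Of the defining ones, Cd3d, Cd3g and Cd2 had 0 reads in every library, while Lck had 0 reads alone and 9 in co-culture and Ptprc 3 and 14. Myeloid markers summed to 46.5 to 83.4 and 51.4 to 73.6, and epithelial markers to 243 to 262 and 202 to 224 normalized counts. The part of these shifts in the results below was not tested.

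Of 38 members that could be tested, 9 rose with apoptotic cells by limma, 0 fell and 29 did not pass. Among all tested genes 6.36% rose and 5.31% fell. The members were chosen with earlier results of these data known, so counts and shares are set side by side as a description only. The 9 were the TGF-beta activator Thbs1, the latent TGF-beta binding proteins Ltbp1 and Ltbp2, the inhibin and activin subunit Inhbb, the ubiquitin ligase Smurf2, the corepressor Tgif1, and Id1, Id2 and Id3. At an unadjusted p under 0.05, 12 members were higher and 5 lower, beside 13.7% and 12.8% of all tested genes. The count of 0 lower was also found by edgeR and DESeq2 on the recovered reads, which called 8 and 9 members higher (6.2% and 6.52% of all genes higher, 5.37% and 5.27% lower). The authors' deposited table called 9 members higher, the same 9, and 0 lower, beside 6.71% and 5.48% of the genes with an adjusted p in that table. The median log2 fold change of the tested members was 0.05, beside 0.001 for all tested genes. No tested member lay near the limit for low values, the lowest being Ltbp4 with a mean of 22.6 normalized counts. In RNA from whole cultures, a change in the number of cells that make a transcript and a change in the RNA per cell cannot be told apart.

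Without alone library 1, limma called 12 members higher and 7 lower, beside 13.4% and 12.5% of all genes. The 9 members called with all libraries were among these. The additional ones were Tgfbr2, Eng and Acvr1 (higher) and Ltbp3, Bmp1, Tgfbr3, Acvr1b, Smad9, Smurf1 and Ski (lower). Every other left-out library lowered the count, to 6, 4 and 7 higher when alone library 2, 3 or 4 was removed and to 4, 4, 3 and 4 when co-culture library 1, 2, 3 or 4 was removed. The share of all tested genes called higher fell as well, to 5.45%, 3.68% and 4.58% without alone library 2, 3 or 4 and to 3.08%, 3.57%, 3.3% and 3.55% without co-culture library 1, 2, 3 or 4. Thbs1, Ltbp2 and Inhbb were called in all 18 alternatives run. The share of all tested genes called in all 18 was not counted.

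**Figure D1:**
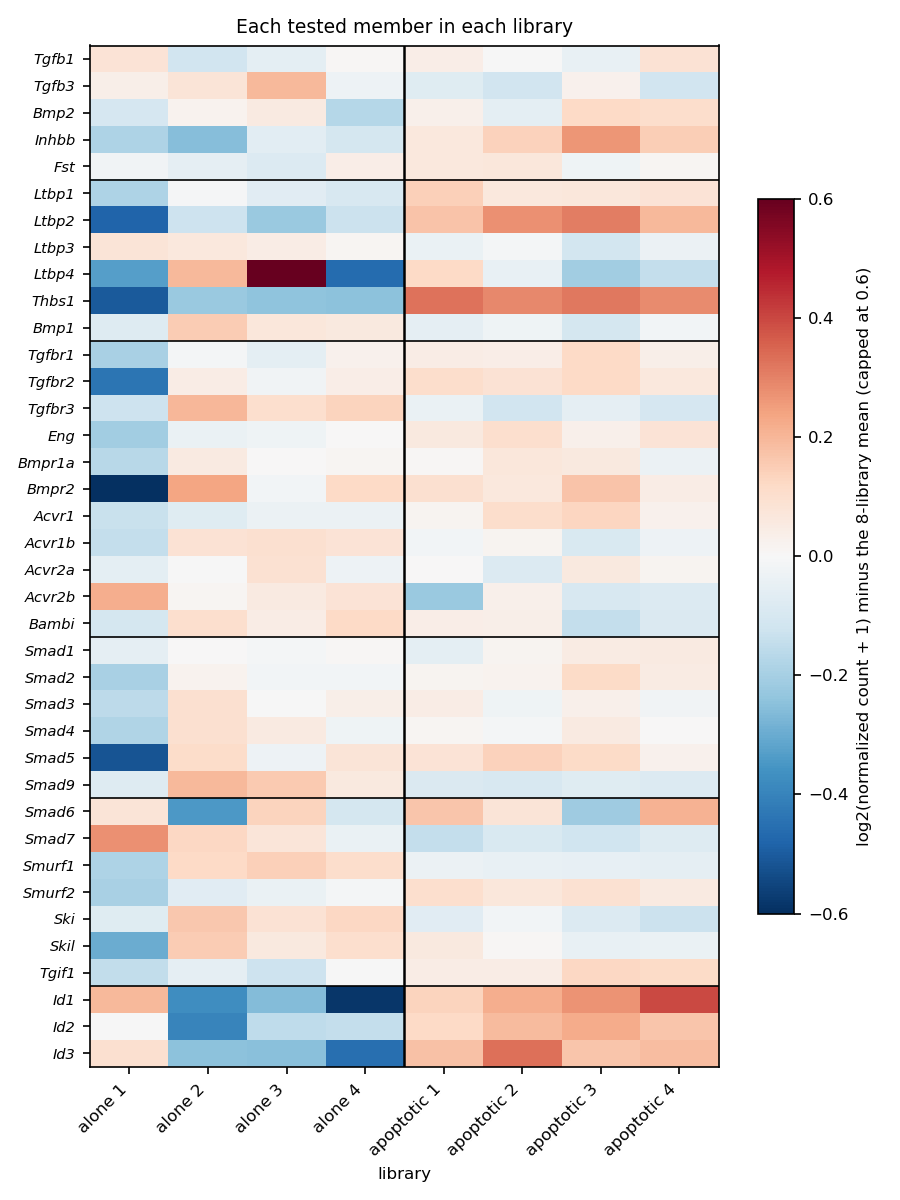
Each row is 1 of the 38 tested members, each column 1 library, and colour is the log2(normalized count + 1) minus the mean of the 8 libraries, capped at 0.6; horizontal lines separate roles. Thbs1 and Ltbp2 are blue in the alone libraries and red in the co-cultures, while alone library 1 is the bluest alone library in 25 rows and the reddest in 7, Id1 to Id3 among them.

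Of 5 tested ligand and antagonist transcripts, Inhbb rose and 4 did not pass, where 6.36% of all tested genes rose. Inhbb encodes the beta B subunit that forms activin B and inhibin B. It had 654, 623, 712 and 691 normalized counts in alone libraries 1 to 4 and 777, 818, 895 and 824 in co-culture libraries 1 to 4. All co-cultures lay above all alone libraries. The mean went from 670 ± 39.6 to 829 ± 48.7 (SD, n = 4 per group), or 0.31 ± 0.06 on the log2 scale (fold change ± SE, limma adjusted p = 0.00836). Inhba, the related subunit of activin A, had 0 reads in all 8 libraries, where a count of 0 in 201 M reads allows up to 3 reads.

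Tgfb1, the TGF-beta isoform best known from immune regulation, had 1820, 1587, 1651 and 1727 normalized counts alone and 1764, 1713, 1664 and 1826 in co-culture. The groups overlapped throughout (log2 fold change 0.04, 95% interval -0.07 to 0.15, limma adjusted p = 0.648). Tgfb3 had 356, 366, 398 and 339 normalized counts alone and 330, 321, 353 and 320 in co-culture. Co-culture libraries 1, 2 and 4 lay below all alone libraries and co-culture library 3 inside the alone range, with a log2 fold change of -0.14 (95% interval -0.28 to 0.002, limma adjusted p = 0.195). Tgfb2 was too low to be tested, with 1, 2, 1 and 1 reads alone and 3, 2, 2 and 2 in co-culture. Among the BMP ligands, Bmp2 had a mean of 262 ± 18.9 and 280 ± 16.0 normalized counts (SD, n = 4 per group) and was not called (log2 fold change 0.10, limma adjusted p = 0.415), and Bmp4 had 0 reads in all libraries. Follistatin (Fst), which binds and blocks activins, ran from 608 to 663 alone and from 633 to 675 in co-culture (log2 fold change 0.06, limma adjusted p = 0.458), and the BMP antagonist Grem1 had 1 read in each group.

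Of 6 tested transcripts, those of the latent TGF-beta binding protein family, Thbs1 and Bmp1, 3 rose and 3 did not pass. Among all tested genes 6.36% rose. With all libraries, Thbs1 had the largest fold change of the tested members, and without alone library 1 Id1 did. Thbs1 encodes thrombospondin 1, a secreted matrix glycoprotein that can activate latent TGF-beta. It had 3891, 4731, 4657 and 4652 normalized counts in alone libraries 1 to 4 and 6901, 6726, 6871 and 6716 in the co-cultures. Each co-culture lay well above each alone library, and alone library 1 was the lowest of all. Its mean of 4483 ± 396 alone became 6804 ± 96.3 with apoptotic cells (SD, n = 4 per group), or 0.61 ± 0.06 on the log2 scale (fold change ± SE, limma adjusted p = 0.000148) or a 52.2% increase. Without alone library 1 the log2 fold change was 0.54 (limma adjusted p = 4.8e-14), and with any 1 library left out it lay between 0.54 and 0.63.

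Ltbp2, a matrix protein of the same family that binds little latent TGF-beta itself, had 486, 622, 581 and 621 normalized counts alone and 764, 820, 839 and 777 in co-culture. These groups did not overlap either, and alone library 1 was again the lowest. Its mean rose from 577 ± 63.7 to 800 ± 35.2 (log2 fold change 0.48, SE 0.08, limma adjusted p = 0.00361), or by 0.40 on the log2 scale without alone library 1. Ltbp1, the main carrier of latent TGF-beta in many cells, had 5231, 5928, 5673 and 5575 normalized counts alone and 6580, 6217, 6232 and 6311 in co-culture. The gap between the groups was narrow, from 5928 to 6217. The mean went from 5602 ± 288 to 6335 ± 168 (log2 fold change 0.18, SE 0.04, limma adjusted p = 0.0196). The Ltbp1 call was lost on removal of alone library 3 or 4 (limma adjusted p = 0.0511 and 0.0508) and on removal of co-culture library 1, 3 or 4 (limma adjusted p = 0.0723, 0.0511 and 0.0569).

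Ltbp3, another carrier of latent TGF-beta, lay in the opposite direction from Ltbp1 and Ltbp2. It had 5053, 5016, 4936 and 4835 normalized counts alone and 4661, 4754, 4448 and 4680 in co-culture, so that the groups did not overlap. The log2 fold change of -0.10 (95% interval -0.17 to -0.03) did not pass (limma adjusted p = 0.0812), and it passed without alone library 1 (-0.09, limma adjusted p = 0.0178). Bmp1, a protease that processes procollagens and can free latent TGF-beta by cutting Ltbp1, had 2394, 2805, 2652 and 2630 normalized counts alone and 2432, 2484, 2348 and 2495 in co-culture. Here alone library 1 fell among the co-cultures while the other alone libraries lay above them (log2 fold change -0.10, limma adjusted p = 0.212, and -0.14, limma adjusted p = 0.00141 without that library). Ltbp4 was low and variable, from 15.5 to 40.6 normalized counts alone and from 18.7 to 23.7 in co-culture, with a 95% interval of -0.74 to 0.46. Tgfbi, a secreted matrix protein named for its induction by TGF-beta, had 0 reads in all 8 libraries and could not serve as a readout.

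**Figure D2:**
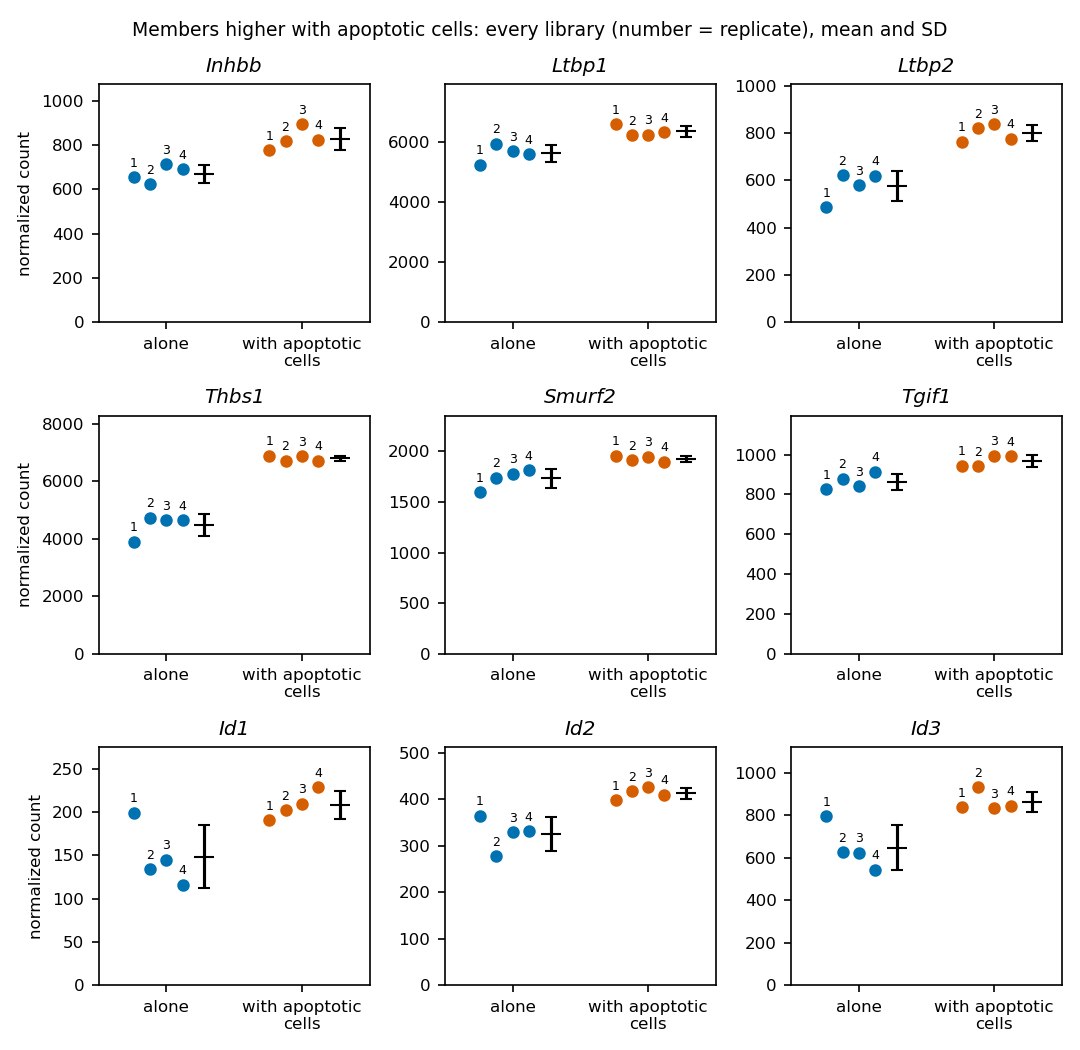
Normalized counts (linear axis from 0) of the 9 members called higher, with 1 point per library, replicate numbers above the points, and the mean and SD of 4 libraries beside them in black. The groups are separate in 8 of the 9 panels. In Id1, alone library 1 at 199 lies above co-culture library 1 at 191. The panels were picked by their calls on these same libraries, so the separation adds no support. Among all tested genes, 11.4% were higher without overlap.

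None of the 11 receptor and co-receptor transcripts passed with all libraries by limma, edgeR or DESeq2. With 11 transcripts, a count of 0 cannot be told from the 6.36% and 5.31% of all tested genes that rose and fell by limma. At an unadjusted limma p under 0.05 there were 3 higher and 1 lower, beside 13.7% and 12.8% of all tested genes. Their log2 fold changes ran from -0.18 to 0.19. Tgfbr1, the TGF-beta type I receptor, had 2440, 2773, 2682 and 2840 normalized counts alone and 2882, 2874, 3037 and 2862 in co-culture. The lowest co-culture lay just above the highest alone library, and the log2 fold change was 0.12 (95% interval 0.01 to 0.23, limma adjusted p = 0.143). Tgfbr2, the type II receptor that binds TGF-beta, had 3776, 5265, 5032 and 5263 normalized counts alone and 5506, 5428, 5555 and 5333 in co-culture. Alone library 1 was far below the rest, and the log2 fold change of 0.19 did not pass (SE 0.09, limma adjusted p = 0.222). Without it the difference shrank to 0.07 while passing the threshold (limma adjusted p = 0.0412).

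Tgfbr3, the betaglycan co-receptor that presents TGF-beta to its receptors, had 1572, 1966, 1837 and 1881 normalized counts alone and 1665, 1582, 1653 and 1597 in co-culture. Alone library 1 was the lowest of all 8, and the other alone libraries lay above every co-culture. The log2 fold change was -0.15 (limma adjusted p = 0.145), and -0.22 without alone library 1 (limma adjusted p = 2.68e-05). Endoglin (Eng), a co-receptor of the same family, lay in the other direction, from 3372 to 3901 normalized counts alone and from 3968 to 4167 in co-culture, without overlap (0.13, limma adjusted p = 0.0923, and 0.09, limma adjusted p = 0.0177 without alone library 1). Acvr1, a type I receptor used by BMPs, ran from 1020 to 1094 alone and from 1132 to 1225 in co-culture, also without overlap (0.14, limma adjusted p = 0.0664, and 0.12, limma adjusted p = 0.0284 without alone library 1).

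Across all 38 tested members the groups did not overlap in 12 that were higher and 2 that were lower with apoptotic cells, where this was so for 11.4% and 9.72% of all tested genes. The lower ones were Ltbp3 and Smad7. Bmpr2, the BMP type II receptor, showed the strongest departure of alone library 1, with 898 normalized counts there against 1461 to 1743 in the other alone libraries and 1523 to 1665 in co-culture. Its log2 fold change was 0.19 with all libraries and -0.02 without that library, neither passing (limma adjusted p = 0.502 and 0.781). Bmpr1a, a BMP type I receptor, and Acvr2a, an activin type II receptor, had log2 fold changes of 0.05 and -0.0004. Acvr1b, the activin type I receptor, was at -0.06, or -0.12 without alone library 1 (limma adjusted p = 0.0449). Acvr2b and the decoy receptor Bambi, at means of 123 normalized counts each, were at -0.18 and -0.08.

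None of the 6 signal-carrying SMADs was called with all libraries by limma, edgeR or DESeq2. With 6 transcripts, a count of 0 cannot be told from the 6.36% and 5.31% of all tested genes that rose and fell by limma. At an unadjusted limma p under 0.05 there was 1 (Smad9, lower), where 13.7% of all tested genes were higher and 12.8% lower. Smad2 had 1006, 1169, 1136 and 1139 normalized counts alone and 1162, 1169, 1245 and 1191 in co-culture. Apart from alone library 1 the groups lay close together (log2 fold change 0.10, 95% interval -0.01 to 0.22, limma adjusted p = 0.247). Smad3 had 3040, 3626, 3392 and 3480 normalized counts alone and 3498, 3332, 3470 and 3342 in co-culture, all co-cultures within the alone range. Its log2 fold change was 0.01 (95% interval -0.10 to 0.13, limma adjusted p = 0.887), and -0.04 without alone library 1. Smad4, the shared partner, had 2300, 2780, 2708 and 2557 normalized counts alone and 2628, 2583, 2702 and 2609 in co-culture. These too lay within the alone range (0.03, 95% interval -0.09 to 0.15, limma adjusted p = 0.777, and -0.03 without alone library 1).

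In the BMP branch, Smad1 stood at 873 ± 16.7 and 892 ± 32.2 normalized counts (SD, n = 4 per group, log2 fold change 0.03). Smad5 had 1081 normalized counts in alone library 1 and 1518 to 1669 in the other alone libraries, beside 1577 to 1704 in co-culture, so its log2 fold change of 0.18 became 0.04 without that library. Smad9 had 1061, 1281, 1244 and 1166 normalized counts alone and 1053, 1044, 1063 and 1056 in co-culture. Its co-cultures lay close together, near the level of alone library 1 and below the other alone libraries. The log2 fold change of -0.17 did not pass (limma adjusted p = 0.0831) and became -0.22 without alone library 1 (limma adjusted p = 0.00013).

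**Figure D3:**
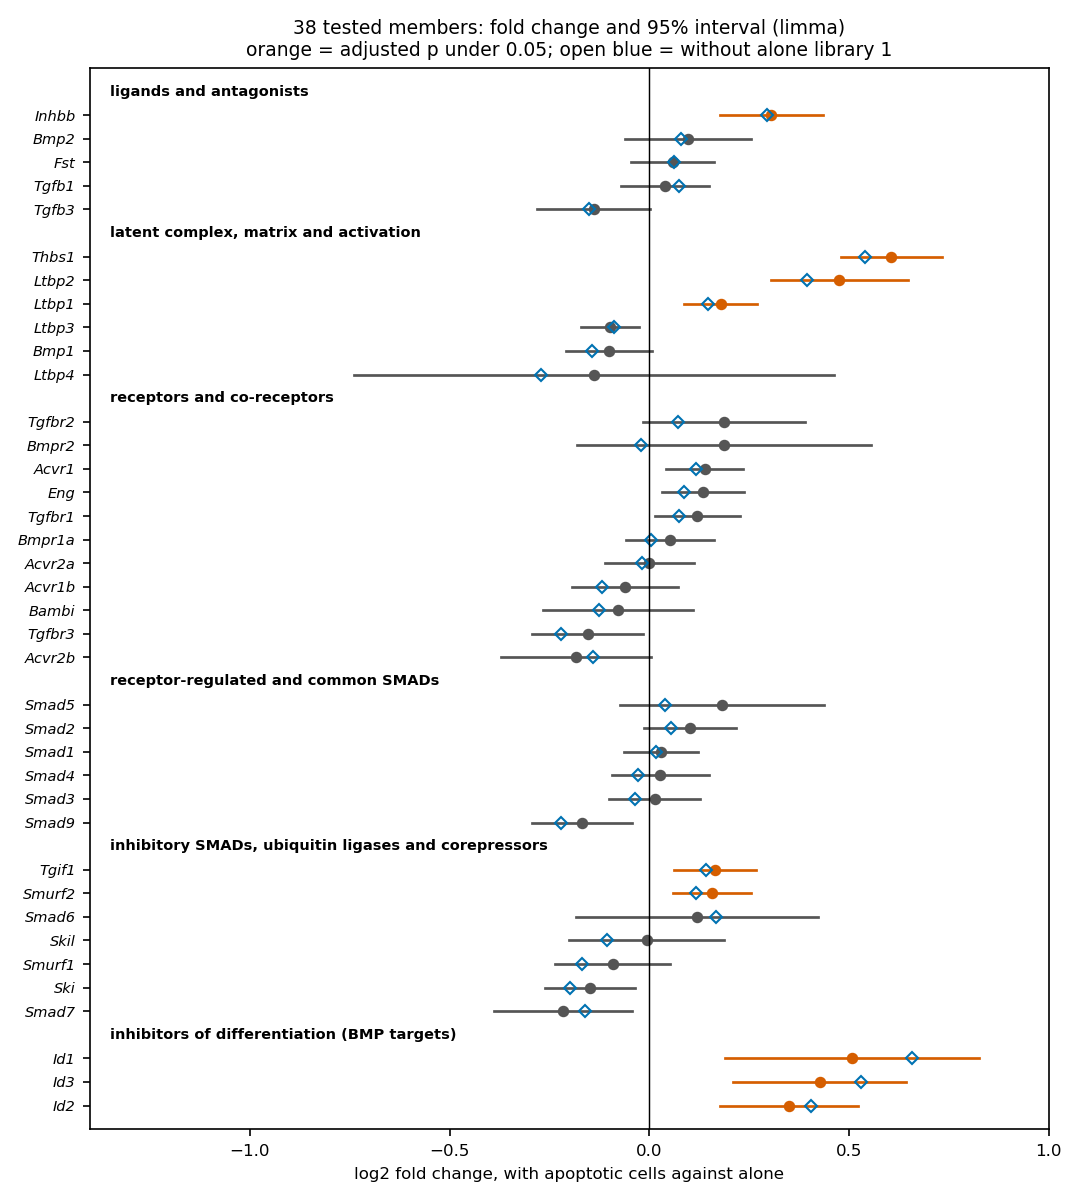
Log2 fold change with apoptotic cells against alone for the 38 tested members, grouped by role, with limma's 95% interval (lines) and orange for an adjusted p under 0.05; open blue diamonds give the value without alone library 1. Thbs1 at 0.61 is highest, no receptor or signal-carrying SMAD is orange, and the diamonds of Id1 to Id3 lie to the right of their points. Among all tested genes 6.36% were called higher and 5.31% lower.

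Of 7 tested negative regulators of SMAD signalling, 2 rose and 5 did not pass, where 6.36% of all tested genes rose. Smurf2, a ubiquitin ligase that targets receptors and SMADs for degradation, had 1596, 1742, 1779 and 1815 normalized counts alone and 1959, 1913, 1950 and 1897 in co-culture. The groups were separate, with a mean of 1733 ± 96.0 against 1930 ± 29.6 (SD, n = 4 per group, log2 fold change 0.16, SE 0.04, limma adjusted p = 0.0437). Tgif1, a homeodomain corepressor that binds SMAD2 and SMAD3, had 825, 880, 840 and 914 normalized counts alone and 945, 942, 996 and 992 in co-culture. The log2 fold change was 0.16 with an SE of 0.05 (limma adjusted p = 0.0444), again without overlap. These calls lay close to the threshold. Both were lost on removal of alone library 2, alone library 3 or a single co-culture library (limma adjusted p = 0.0725 to 0.128 for Smurf2 and 0.0659 to 0.125 for Tgif1) and both held without alone library 1 (0.00683 and 0.0149) or 4 (0.0469 and 0.0418).

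Smad7, the inhibitory SMAD that TGF-beta itself induces, had 213, 192, 185 and 171 normalized counts alone and 159, 165, 162 and 166 in co-culture. All co-cultures were below all alone libraries, narrowly, and the log2 fold change of -0.22 (95% interval -0.39 to -0.04) did not pass (limma adjusted p = 0.104). Smad6, the inhibitory SMAD of the BMP branch, was low, at 67.8 ± 9.94 and 73.7 ± 9.31 normalized counts (log2 fold change 0.12, limma adjusted p = 0.608). Smurf1, the sister ligase of Smurf2, had 2546, 3141, 3196 and 3112 normalized counts alone and 2825, 2803, 2794 and 2788 in co-culture. Alone library 1 was below the co-cultures and the other alone libraries above them, and the log2 fold change was -0.09 (limma adjusted p = 0.396), or -0.17 without alone library 1 (limma adjusted p = 4.78e-05). Ski, a corepressor of SMAD complexes, had 2235 normalized counts in alone library 1, 2490 to 2625 in the other alone libraries and 2147 to 2320 in co-culture, so that alone library 1 lay among the co-cultures and the other alone libraries above them (-0.15, limma adjusted p = 0.0898, and -0.20, limma adjusted p = 5.01e-05 without alone library 1). Its relative Skil, whose transcript TGF-beta can induce, was at -0.01, or -0.11 without alone library 1 (limma adjusted p = 0.970 and 0.0832).

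Id1, Id2 and Id3 encode proteins that bind basic helix-loop-helix transcription factors and keep them off DNA. All 3 rose by limma and 2 of them by edgeR, where 6.36% and 6.2% of all genes rose. Id1 had 199, 134, 145 and 116 normalized counts in alone libraries 1 to 4 and 191, 202, 210 and 229 in the co-cultures. The groups overlapped only through alone library 1, which lay above co-culture library 1. The mean went from 149 ± 35.9 to 208 ± 16.1 (SD, n = 4 per group), or 0.51 ± 0.14 on the log2 scale (fold change ± SE, limma adjusted p = 0.0447). Id2 had 365, 278, 329 and 331 normalized counts alone and 398, 418, 426 and 410 in co-culture. The groups were separate, with means of 326 ± 35.9 and 413 ± 12.1 (0.35, SE 0.08, limma adjusted p = 0.0177). Id3 had 795, 625, 624 and 543 normalized counts alone and 838, 933, 833 and 845 in co-culture. It rose from 647 ± 106 to 863 ± 47.4 (0.43, SE 0.10, limma adjusted p = 0.0196).

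Alone library 1 was the highest alone library for each of these Id transcripts, by 0.60, 0.23 and 0.41 on the log2 scale over the mean of the other alone libraries for Id1, Id2 and Id3. Without it the log2 fold changes were 0.66, 0.41 and 0.53 (limma adjusted p = 1.05e-05, 6.01e-05 and 6.57e-08). With it, leaving out another library weakened the calls. Id1 was lost on removal of any single library other than alone library 1 (limma adjusted p = 0.0815 to 0.123), and in edgeR (adjusted p = 0.0546). In all, Id1 was called in 6 of 18 alternatives. Id3 was lost without alone library 3 (limma adjusted p = 0.0604) and without co-culture library 1, 2, 3 or 4 (limma adjusted p = 0.054, 0.0671, 0.0527 and 0.052). Id2 was lost without co-culture library 2 or 3 (limma adjusted p = 0.0556 and 0.0601). None of these changed direction in any alternative run.

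Of the 29 members not called, 18 had a 95% interval that lay within a 1.2-fold change in either direction and 28 within a 1.5-fold change, Ltbp4 being the exception. The median SE of a log2 fold change was 0.06 among the tested members. For Bmpr2, Smad5 and Tgfbr2 it was 0.17, 0.12 and 0.09 with all libraries and 0.05, 0.04 and 0.03 without alone library 1.

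**Figure D4:**
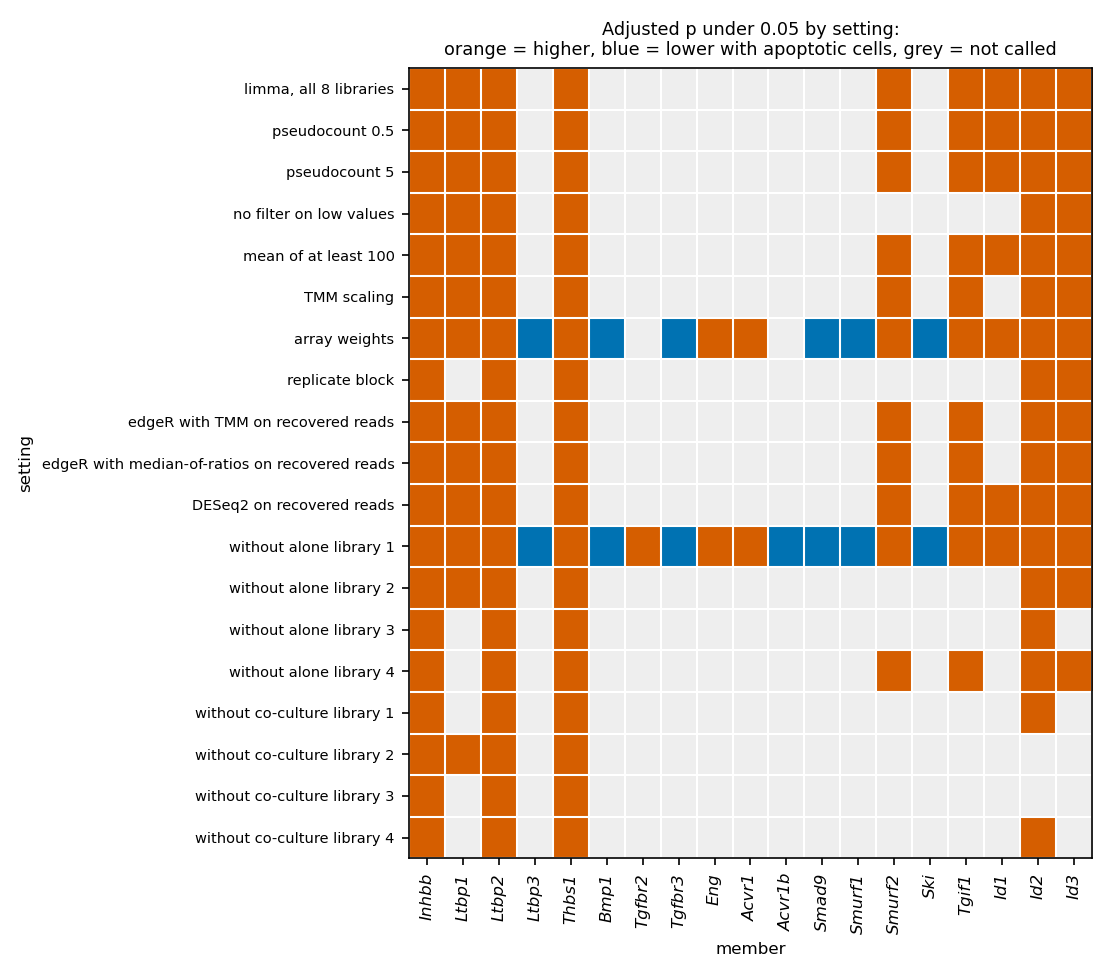
Calls at an adjusted p under 0.05 for the 19 members called under at least 1 of 19 settings (rows: limma with all 8 libraries and 18 alternatives), orange for higher and blue for lower with apoptotic cells. Inhbb, Ltbp2 and Thbs1 are orange in every row, and blue cells appear only with array weights and without alone library 1. In either direction, 11.7% of all tested genes were called by limma with all 8 libraries and 26% without alone library 1. The shares of all tested genes called in any or in every setting were not counted.

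Other genes of the pathway came from lists chosen by textbook role, with earlier results of these data known. For the lists below, the shares of all tested genes were 6.36% higher and 5.31% lower by limma, and 13.4% and 12.5% without alone library 1. Of 14 tested further ligands and antagonists, 1 rose and 1 fell, and 3 rose and 3 fell without alone library 1. Fstl1, a secreted follistatin-like glycoprotein, had a mean of 12281 normalized counts alone and 14532 with apoptotic cells (log2 fold change 0.25, limma adjusted p = 0.0183), a call lost on removal of co-culture library 1, 2, 3 or 4 (limma adjusted p = 0.061, 0.052, 0.0579 and 0.0541). Decorin (Dcn), a matrix proteoglycan that binds TGF-beta and is also a fibroblast marker, fell from 953 ± 41.0 to 767 ± 24.2 (-0.31, limma adjusted p = 0.0022). Nbl1, on the same list but held under a locus name, was left out of the 14 and of the counts of this list. It had a mean of 4058 normalized counts over all libraries, and its fold change is not given here. Its reads, not scaled by library, were 4919, 4863, 4282 and 4022 in alone libraries 1 to 4. In co-culture libraries 1 to 4 they were 3963, 3406, 3358 and 3949. Of 9 tested further receptors and ligand activators, 2 rose: Vasn, a membrane protein that binds TGF-beta (0.20, limma adjusted p = 0.0052), and Rgma, a BMP co-receptor (0.23, limma adjusted p = 0.0117). The same 2 were the only ones called without alone library 1. The integrin subunit Itgav, which takes part in releasing latent TGF-beta, stood at 3090 ± 212 and 3098 ± 87.5 normalized counts.

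Among 30 tested further SMAD regulators, 5 rose and 2 fell, and 10 rose and 2 fell without alone library 1. Zfyve9, known as SARA, which anchors SMAD2 and SMAD3 at receptor endosomes, had 1354 ± 107 normalized counts alone and 1743 ± 80.3 in co-culture (log2 fold change 0.37, limma adjusted p = 0.00368). Uchl5, a deubiquitinase that binds SMAD7, rose by 0.28 on the log2 scale (limma adjusted p = 0.00196), and both calls held with any 1 library left out. Trim33, a ubiquitin ligase that acts on SMAD4 (0.26), the transcription factor Zeb1 (0.22) and the deubiquitinase Usp4 (0.11) also rose, while the endocytic adaptor Dab2 (-0.26) and Ppp1r15a, a phosphatase subunit of the stress response (-0.24), fell. None of these 5 calls held throughout. Trim33 was lost on removal of co-culture library 1, 2 or 3 (limma adjusted p = 0.0539 to 0.0654), Zeb1 on removal of alone library 3 or a single co-culture library (0.0647 to 0.111), and Ppp1r15a on removal of alone library 3 or 4 or a single co-culture library (0.0529 to 0.112). Usp4 and Dab2 were lost on removal of any library other than alone library 1 (limma adjusted p = 0.052 to 0.119 and 0.0673 to 0.0949).

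Transcripts known to be induced by TGF-beta in fibroblasts had calls in both directions. Of 23 tested, 3 rose and 1 fell by limma, beside 6.36% and 5.31% of all tested genes. DESeq2 called 3 higher and 2 lower, beside 6.52% and 5.27%. The median log2 fold change of the 23 was 0.05. Without alone library 1, 4 rose and 2 fell, beside 13.4% and 12.5% of all tested genes. The additional calls were Timp1 (0.16, limma adjusted p = 0.00154) and Sphk1 (-0.17, limma adjusted p = 0.00738). Snai1, a transcription factor of mesenchymal transition, had 384 ± 20.7 normalized counts alone and 485 ± 15.6 in co-culture (log2 fold change 0.34, limma adjusted p = 0.00386), and the fibronectin receptor subunit Itga5 rose from 4850 ± 203 to 5595 ± 84.4 (0.21, limma adjusted p = 0.00521). Klf10, the TGF-beta inducible early gene, rose by 0.26 on the log2 scale (limma adjusted p = 0.0367), a call lost on removal of alone library 3 or 4 or a single co-culture library (limma adjusted p = 0.0593 to 0.107). Nox4, an NADPH oxidase, fell from 2513 ± 65.0 to 2149 ± 44.4 (-0.23, limma adjusted p = 0.0026). Col1a1, Col1a2 and Acta2, the common markers of fibroblast activation, were too low to be tested. Acta2, the smooth muscle actin, had 39 reads alone and 38 in co-culture.

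Outside the Id genes, transcripts known to be induced by BMPs gave no call with all libraries. Of 7 tested, 0 rose and 0 fell by limma, edgeR or DESeq2 and 0 had an unadjusted limma p under 0.05. With 7 genes, a count of 0 cannot be told from the 6.36% and 5.31% of all tested genes that rose and fell by limma. Without alone library 1, Hes1 rose (0.22, limma adjusted p = 0.044) and Runx2 fell (-0.23, limma adjusted p = 0.00769), where 13.4% of all tested genes rose and 12.5% fell. Gata2, a transcription factor gene, stood at 1121 ± 28.4 and 1100 ± 15.0 normalized counts (SD, n = 4 per group) and Atoh8 at 22.0 ± 4.41 and 25.2 ± 1.67.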

How the data were processed

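RNA-seq of 4 libraries of LR73 cells alone and 4 with apoptotic Jurkat cells was used. FastQC, STAR, featureCounts and DESeq2 are named in the submitters' processing notes, without versions; no source used here gives the build, annotation or strand setting, so reads of near-identical genes may be split and human reads may be counted under hamster genes. The authors deposited 1 table of signal per library. Its values are whole multiples of 1 step per library (100% within 0.01 reads), that is, gene counts divided by a size factor, and reads were recovered from them. Per the file headers, the deposited table also holds the authors' p-values, test score, log2 fold change and mean signal. Of these only the calls at the authors' adjusted p, and the sign of the fold change for their direction, were used. The 1 row with a blank gene name, with 0.14 to 0.176% of reads, was left out.

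The main test was limma 3.58.1 (R 4.3.3), with trend and group as the only term, on log2(normalized count + 1), restricted to genes averaging at least 10, which understates changes of low genes. Counts were tested with edgeR 4.0.16 (quasi-likelihood) and DESeq2 1.42.0 as alternatives, beside other pseudocounts, filters, scalings, array weights, a replicate block and each library left out. Steps were tested on simulated data. The members and lists were chosen with earlier results of these data known. Values in full are given for called members and a fixed set of ligands, receptors, SMADs, Id genes and Thbs1; from other lists, called genes are named, at most 6 by adjusted p, with a few uncalled ones chosen after their values were seen. One gene of the list of TGF-beta-induced transcripts is not reported here and was left out of that list's counts. No genome or sequence was used. Intervals cover the spread of these libraries only. Figures were drawn with matplotlib 3.10.9.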

Additional observations from a re-analysis of the deposited data

Results flagged for a closer look

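In 6 of 76 groups of 4 libraries examined (38 members in each condition), 1 library stood far from the other 3, measured by its gap to the nearest of them as a share of the range. Chance gives about 1 in 20 such groups. Alone library 1 was low for Thbs1 (3891 against 4652 to 4731 normalized counts), Tgfbr2 (3776 against 5032 to 5265), Acvr1b (689 against 807 to 813) and Smurf1 (2546 against 3112 to 3196). In the co-cultures, library 3 was high for Tgfbr1 (3037 against 2862 to 2882) and library 2 for Id3 (933 against 833 to 845).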

How the results depend on the processing

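With array weights, 1804 genes were higher and 1674 lower over all genes (13.4% and 12.4%), and 11 members were higher and 6 lower. With the replicate block, 498 genes were higher and 400 lower (3.69% and 2.96%), and 5 members were higher and 0 lower. Ltbp1, Smurf2, Tgif1 and Id1 lost their calls with the block. Whether the shared numbers pair the libraries is not known. Deviations of same-numbered libraries correlated at -0.0898 to 0.0682, and of the alone libraries only library 2 correlated best with the co-culture of its own number. The deviations were taken from each group's own mean, so these correlations depend on each other and cannot exclude a pairing. Over left-out libraries, genes higher ran from 416 to 1811 and genes lower from 356 to 1694. Members higher ran from 3 to 12 and members lower from 0 to 7, the highest counts all without alone library 1. The median log2 fold change of members ran from 0.0274 to 0.0864. With no filter, 6 members were higher, beside 3.85% of 19919 genes, with TMM scaling 8, beside 5.91%, and with either edgeR fit 8, beside 6.2% and 6.23%. Smurf2, Tgif1 and Id1 lost their calls with no filter, and Id1 with TMM scaling and with either edgeR fit. The cause of these differences was not tested. Some members that were not called changed direction. Smad3 and Smad4 were at -0.02 and -0.017 with array weights, and at -0.037 and -0.027 without alone library 1, where Bmpr2 was at -0.021. Over left-out libraries, Bmpr2 ran from -0.021 to 0.298, Smad3 from -0.037 to 0.048, Smad4 from -0.027 to 0.064, Skil from -0.107 to 0.043, Acvr2a from -0.02 to 0.03 and Ltbp4 from -0.315 to 0.129. No called member changed direction in any of the 18 alternatives. Depth limits Tgfb2 and Grem1, which had too few reads to be tested.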

Other observations

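The levels of Ltbp1 and Ltbp2 relative to Ltbp3 were higher in every co-culture library than in any alone library. This follows from the levels given above, where Ltbp1 and Ltbp2 were higher and Ltbp3 lower without overlap. It is a description chosen after the values were seen and given without a test, and it adds no support. The ratio of Ltbp1 to Ltbp3 normalized counts was 1.04, 1.18, 1.15 and 1.15 in alone libraries 1 to 4 and 1.41, 1.31, 1.40 and 1.35 in the co-cultures. The ratio of Ltbp2 to Ltbp3 was 0.0962 to 0.128 alone and 0.164 to 0.189 in co-culture. These ratios do not depend on the scaling of the libraries, and as ratios of counts they do not give the ratio of molecules.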
